A study of Mus musculus with 24 samples.

Results

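The oligodendrocyte lineage was followed through 8 genes, Olig1, Sox10, Pdgfra, Cspg4, Mbp, Cnp, Mag and Gpr17, which were picked by symbol out of the 22667 genes of the expression table. All 8 had counts and all 8 were retained among the 16627 genes tested. The choice rested in part on the data, because Olig1 was known to be among the genes with the largest loss in slow/slow neurons. For that reason the comparison of slow/slow with WT neurons is given below without a test for any of the 8 genes, and Olig1 carries no test in any comparison that involves neurons. The cells were mouse embryonic stem cells (ESCs) and 3 kinds of cell derived from them, namely neural progenitor cells (NPCs) at day 7, PSA-NCAM+ cells captured on beads at day 10, and mature neurons grown for 14 days after replating at day 7. WT cells carried the normal RNA polymerase II on both alleles. In slow/slow cells both alleles of Polr2a, which encodes the largest subunit of that enzyme, carried a change of 1 arginine to histidine that the study describes as slowing elongation. ESCs of both genotypes were kept in 2i medium with LIF on gelatin, the later stages in N2B27 medium, and the neurons on poly-ornithine and laminin with ascorbic acid and cAMP. There were 3 replicates of each of the 8 groups, which the study describes as independent differentiation experiments from cell lines, and how many slow/slow clones they represent is not given in the sources used here. The cultures that gave NPCs and PSA-NCAM+ cells had been plated at 10000 WT and 30000 slow/slow cells per cm2, so genotype and plating density cannot be told apart at these stages. The neurons were replated from day 7 cultures, and the neuron samples list no density for those cultures. If they were plated in the same way, genotype and early density cannot be told apart in neurons either. A substitution does not show in gene counts, and the genotype labels were therefore not checked here.

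Oligodendrocytes are the myelin-forming glia of the central nervous system. They arise from precursor cells that express the basic helix-loop-helix factors Olig1 and Olig2 and the HMG-box factor Sox10, and that carry the PDGF receptor Pdgfra and the proteoglycan Cspg4 (also called NG2) on their surface. The receptor Gpr17 marks cells on the way to differentiation, while Cnp, Mbp and Mag encode proteins of the myelin sheath. Most of these genes are also used elsewhere. Sox10 is expressed by neural crest cells and Schwann cells, Pdgfra by mesenchymal cells, Cspg4 by pericytes, and Cnp at a low level by many cell types. In bulk RNA, fewer cells of a type and less RNA per cell cannot be told apart.

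The libraries held between 32974432 and 104466886 counts, so that 3 counts in a sample corresponded to between 0.0289 and 0.0929 CPM (counts relative to library size, scaled by TMM). Both PSA-NCAM+ libraries numbered 1 stood apart from their group. Their correlation with the other libraries of the group across genes was 0.978 in WT and between 0.960 and 0.965 in slow/slow cells, whereas every other pair of replicates reached at least 0.994. Values of called genotype differences in PSA-NCAM+ cells are therefore given with and without this pair. Genes with an FDR under 0.05 in edgeR were called changed, and a log2 change compares slow/slow with WT cells of the same stage, with its standard error (SE), unless another comparison is named.

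Olig1 has 2 relatives, Olig2 and Olig3, and because the family shares a conserved core, the sequences are shown to judge how well reads can be assigned to each gene. The stretch below is the 120-base window of the coding sequence in which Olig1 was most like both relatives, taken from the GENCODE transcripts and placed on GRCm38. Capitals mark the 78 bases that are alike in all 3 genes. The Olig1 window lies on chromosome 16 from 91270255 to 91270374, that of Olig2 on chromosome 16 from 91226805 to 91226924, and that of Olig3 on chromosome 10 from 19356962 to 19357081, all on the plus strand.
Olig1: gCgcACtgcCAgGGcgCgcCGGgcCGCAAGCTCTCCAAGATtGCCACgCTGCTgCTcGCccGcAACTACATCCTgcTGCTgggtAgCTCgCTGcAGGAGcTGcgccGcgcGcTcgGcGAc
Olig2: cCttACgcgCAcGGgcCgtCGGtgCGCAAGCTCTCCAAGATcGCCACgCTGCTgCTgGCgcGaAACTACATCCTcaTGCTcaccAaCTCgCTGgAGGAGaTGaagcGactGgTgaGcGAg
Olig3: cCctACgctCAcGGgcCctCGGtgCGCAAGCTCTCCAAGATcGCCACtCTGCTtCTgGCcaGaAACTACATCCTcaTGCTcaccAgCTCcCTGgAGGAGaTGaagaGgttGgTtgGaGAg

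Olig1 matched Olig2 at 85 and Olig3 at 81 of the 120 bases, and Olig2 matched Olig3 at 105. Over the whole transcripts the longest run without a mismatch was 17 bases between Olig1 and either relative and 29 bases between Olig2 and Olig3, shorter than the sequenced reads. Olig1 consists of 1 exon (GRCm38 chromosome 16, 91269772 to 91271933), lies 41.1 kb downstream of Olig2 on the same strand, and overlaps 1 annotated gene on the opposite strand, Gm15966. The kit marks strand, but whether counting used it is not given in the sources used here, so reads of Olig1 and of Gm15966 may have been counted together. The same holds for Pdgfra (Gm42802 and Gm42803), Mbp (Rpl21-ps8), Cnp (Dnajc7) and Gpr17 (Lims2). On GRCm38, Sox10 lies on chromosome 15 (79154908 to 79165240, minus strand), Cspg4 on chromosome 9 (56865033 to 56899870, plus strand), Cnp on chromosome 11 (100574904 to 100591729, plus strand) and Mag on chromosome 7 (30899176 to 30914873, minus strand), while Mbp and Gpr17 are on chromosome 18.

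Olig1 was high in WT neurons and in no other group. The 3 WT neuron libraries gave 34.9, 46.7 and 33.7 CPM, from 2273 to 3498 counts each, and the slow/slow neuron libraries gave 0.194, 0.324 and 0.137 CPM, from 5 to 26 counts each. The groups did not overlap, and the fitted log2 change was -7.36 ± 0.354, which is 164.6-fold lower. In WT cells the mean was 38.4 ± 7.18 CPM (SD, n = 3) in neurons, 0.956 ± 0.119 in NPCs, 0.401 ± 0.110 after PSA-NCAM capture and 0.313 ± 0.133 in ESCs. In slow/slow cells the means stayed between 0.218 and 0.358 CPM at all 4 stages, and each group overlapped its neighbours. In WT cells only the lowest groups, PSA-NCAM+ cells and ESCs, overlapped.

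Olig1 was also lower in slow/slow NPCs, a comparison that the choice of the gene did not use. There WT libraries gave 0.853, 1.09 and 0.930 CPM and slow/slow libraries 0.272, 0.310 and 0.493 CPM, without overlap. Olig1 fell by 1.46 ± 0.327 on the log2 scale in slow/slow NPCs (FDR = 0.000841), and the call held in all 12 alternatives run, from -1.72 to -1.24. In ESCs it did not differ beyond the spread, with a log2 change of -0.03 ± 0.383 (FDR = 0.979). In PSA-NCAM+ cells the groups overlapped and Olig1 was not called, with a log2 change of -0.77 ± 0.348 (FDR = 0.0648). Without the libraries numbered 1 it was -0.83 (FDR = 0.0581).

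**Figure D1:**
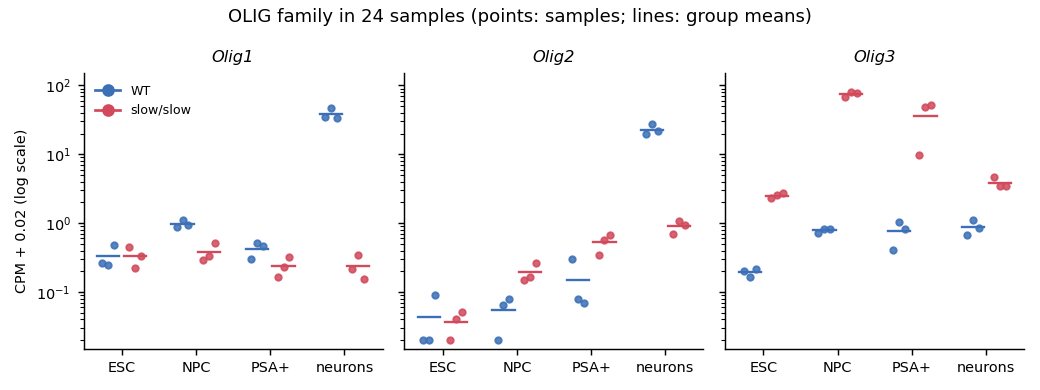
Level of Olig1, Olig2 and Olig3 in each of the 24 samples (points) with group means (lines), as CPM plus 0.02 on a log axis, for WT (blue) and slow/slow (red) cells at 4 stages. Olig1 is at 33.7 to 46.7 CPM in WT neurons and at most 0.324 CPM in slow/slow neurons, Olig2 follows the same split in neurons, and Olig3 is higher in slow/slow cells at every stage.

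Olig2, the gene next to Olig1 in the family and the factor needed to specify oligodendrocyte precursors and motor neurons, was nearly gone from slow/slow neurons as well. WT neurons gave 19.4, 27.5 and 21.5 CPM, and slow/slow neurons gave 0.685, 1.06 and 0.904 CPM. Olig2 fell by 4.69 ± 0.443 on the log2 scale (FDR = 4.12e-08). In ESCs it had 0 to 4 counts per library, and the groups overlapped. In NPCs and PSA-NCAM+ cells it was low, and there the slow/slow cells were higher, with means of 0.173 against 0.0351 CPM in NPCs (log2 change 2.06, FDR = 0.0318) and 0.512 against 0.128 CPM in PSA-NCAM+ cells (1.87, FDR = 0.0042; 3.46, FDR = 5.7e-06 without the libraries numbered 1).

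Olig3, which is expressed by dorsal progenitors of the hindbrain and spinal cord rather than by oligodendrocytes, was higher in slow/slow cells at all 4 stages. In NPCs its mean was 0.767 ± 0.0521 CPM in WT and rose to 75.4 ± 6.95 CPM with the slow polymerase, by 6.61 ± 0.483 on the log2 scale (FDR = 1.7e-09). In neurons it rose from 0.860 to 3.86 CPM (2.17, FDR = 0.000237). The members of the family thus changed in opposite directions. Around Olig1 and Olig2, within 500 kb on either side, 19 other genes were tested in neurons. Of these, 3 were higher and 9 lower in slow/slow cells, beside 23.4% and 28.4% of all genes tested. The log2 changes of the 19 lay between -2.81 and 0.81. None of the 19 changed as far as Olig2 or Olig1, and the window was chosen after the values of both genes were known.

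**Figure D2:**
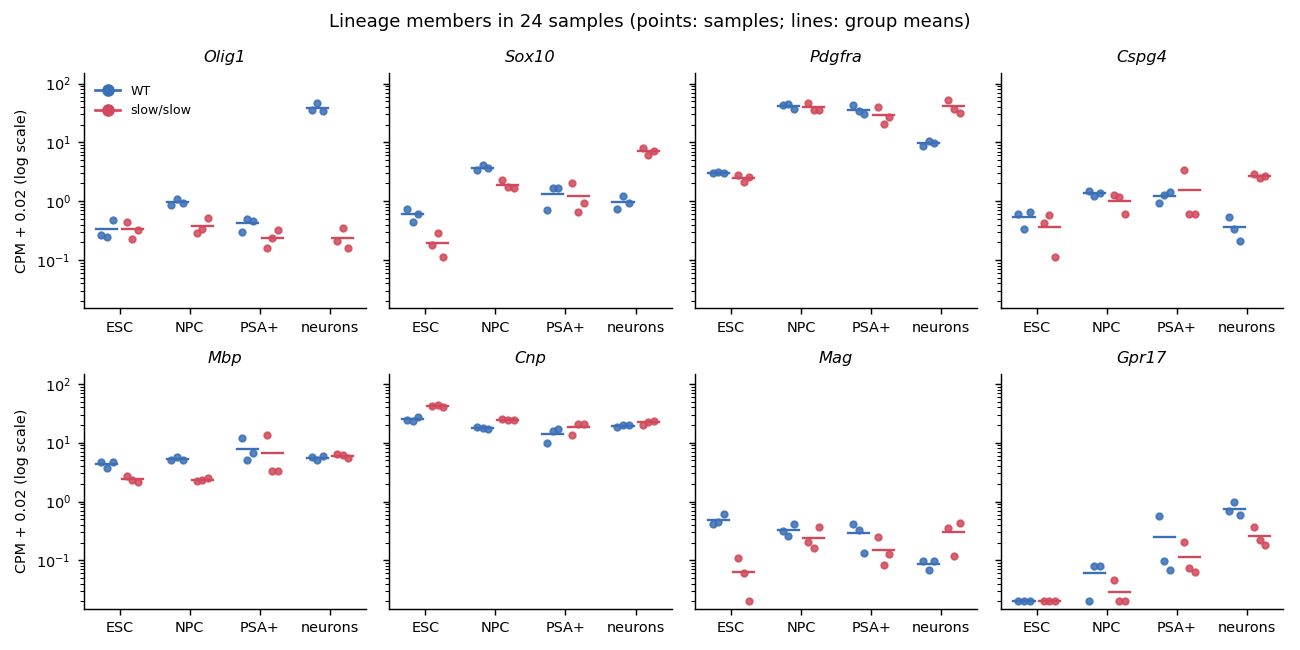
Level of the 8 genes in each sample (points) with group means (lines), as CPM plus 0.02 on a log axis, for WT (blue) and slow/slow (red) cells from ESCs to neurons; PSA+ stands for PSA-NCAM+ cells. In neurons Olig1 and Gpr17 are lower in every slow/slow sample, Sox10, Pdgfra, Cspg4 and Mag are higher in every slow/slow sample, and Mbp overlaps.

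Sox10, the factor that maintains oligodendrocyte precursors and drives myelin genes, went the other way in neurons. WT neurons gave 0.706, 1.20 and 0.895 CPM and slow/slow neurons 7.88, 6.11 and 7.21 CPM. Every slow/slow sample was above every WT sample, with a log2 change of 2.92 ± 0.376. The gene was thus highest in slow/slow neurons among all 8 groups, while in WT cells it was highest in NPCs. Within WT cells Sox10 rose from ESCs to NPCs by 2.65 ± 0.391 on the log2 scale (FDR = 6.14e-06) and fell from NPCs to neurons, by a log2 change of -1.99 ± 0.368 (FDR = 5.12e-05). In slow/slow cells it rose from ESCs to NPCs by 3.38 ± 0.463 (FDR = 2.47e-06) and again from NPCs to neurons by 1.90 ± 0.361 (FDR = 8.3e-05). In ESCs and NPCs the genotype difference had the opposite sign. Sox10 was lower in slow/slow ESCs, at 0.172 ± 0.0874 against 0.578 ± 0.149 CPM (log2 change -1.70 ± 0.490, FDR = 0.00877), and lower in slow/slow NPCs, at 1.88 ± 0.344 against 3.71 ± 0.381 CPM (-0.97 ± 0.357, FDR = 0.0259). The call in NPCs was lost without WT replicate 2 (FDR = 0.0763), WT replicate 3 (FDR = 0.0565), slow/slow replicate 2 (FDR = 0.0823) or slow/slow replicate 3 (FDR = 0.0887), with similar log2 changes. In PSA-NCAM+ cells the groups overlapped and Sox10 was not called (-0.19 ± 0.368, FDR = 0.683). There the sign changed in 4 of 14 alternatives, and without the libraries numbered 1 the log2 change was -1.11 (FDR = 0.000352).

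Pdgfra, the receptor through which PDGF sustains precursor division, was higher in NPC cultures than in ESCs of both genotypes. It rose from ESCs to NPCs by 3.77 ± 0.236 in WT and by 4.01 ± 0.242 in slow/slow cells on the log2 scale (FDR = 3.67e-11 and 1.56e-11), to 41.5 ± 4.46 and 39.7 ± 6.37 CPM, and the genotypes did not differ beyond the spread in NPCs (FDR = 0.809). From NPCs to neurons it fell by 2.09 ± 0.215 in WT cells (FDR = 1.7e-08), whereas in slow/slow cells the log2 change was 0.04 ± 0.205 (FDR = 0.859). WT neurons accordingly gave 8.73, 10.7 and 9.77 CPM and slow/slow neurons 53.3, 37.0 and 32.2 CPM, without overlap and with a log2 change of 2.07 ± 0.215. From ESCs to NPCs, marker genes of other cells rose as well. Of 15 genes of pericytes and mesenchyme, 12 rose and 2 fell in WT, and 10 rose and 1 fell in slow/slow cells. Of 11 genes of extraembryonic endoderm, 9 rose in WT and 11 in slow/slow cells, and 0 fell. Of all genes tested, 34.0% rose and 31.6% fell in WT cells, against 33.9% and 28.4% in slow/slow cells. The part of such cells in the Pdgfra level was not tested. Pdgfra spans 45924 bases on GRCm38 chromosome 5 (75152292 to 75198215) and was the second longest of the 8 genes after Mbp.

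The ligands and the sister receptor of the PDGF system moved unevenly. Pdgfa, the ligand best known to act on oligodendrocyte precursors, fell in slow/slow NPCs by 1.52 (FDR = 1.56e-05), in PSA-NCAM+ cells by 1.14 (FDR = 0.000246; 1.41 without the libraries numbered 1) and in neurons by 1.13 on the log2 scale (FDR = 0.000381). Pdgfrb, the receptor of pericytes and other mural cells, fell in slow/slow ESCs, NPCs and PSA-NCAM+ cells (log2 changes -1.40, -2.10 and -1.41, the last -1.92 without the libraries numbered 1) and rose in neurons by 2.59 (FDR = 3.25e-07), from 7.02 to 42.4 CPM. Of the 5 genes of the system other than Pdgfra, 1 was higher and 2 were lower in slow/slow neurons, beside 23.4% and 28.4% of all genes tested.

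Cspg4, the NG2 proteoglycan, was scarce throughout. WT neurons gave 0.522, 0.321 and 0.193 CPM and slow/slow neurons 2.87, 2.44 and 2.63 CPM, which did not overlap, with a log2 change of 2.97 ± 0.588. From NPCs to neurons it fell by 2.00 ± 0.585 in WT cells (FDR = 0.00386) and rose by 1.39 ± 0.544 in slow/slow cells (FDR = 0.0264), the latter call being lost without slow/slow NPC replicate 3 (FDR = 0.102), neuron replicate 1 (FDR = 0.0646) or neuron replicate 3 (FDR = 0.0509). The rise from ESCs to NPCs was near the threshold in both genotypes (FDR = 0.0429 and 0.0465) and was lost without any 1 of the 6 WT libraries and without 4 of the 6 slow/slow libraries, FDR from 0.063 to 0.174.

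Markers of other cells that express Sox10, Pdgfra or Cspg4 were also higher in slow/slow neurons. Of 12 genes of neural crest and Schwann cells, 9 were higher and 0 lower, and their summed level was 160 to 180 CPM in WT and 428 to 455 CPM in slow/slow neurons, with none of the 12 at 0 in either group. The largest changes were in Cdh19 (0, 2 and 0 counts in WT and 26, 31 and 13 in slow/slow neurons, FDR = 0.000101), Pax3 (log2 change 4.29, FDR = 1.2e-09), Tfap2b (2.39, FDR = 5.1e-08) and Foxd3 (2.16, FDR = 3.59e-06). Of 15 genes of pericytes and mesenchyme, 11 were higher and 2 lower, and their summed level was 486 to 638 CPM in WT and 854 to 891 CPM in slow/slow neurons, again with none at 0. Lum (5.55, FDR = 4.74e-09), Kcnj8 (4.84, FDR = 7.73e-09), Rgs5 (4.33, FDR = 2.81e-08) and Abcc9 (4.14, FDR = 7.3e-08) rose most, while the contractile genes Acta2 (-2.23, FDR = 1.09e-08) and Tagln (-2.09, FDR = 1.01e-07) fell. In these neurons 51.9% of all genes tested were called, 23.4% as higher and 28.4% as lower. The part of such cells in the higher Sox10, Pdgfra and Cspg4 was not tested.

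**Figure D3:**
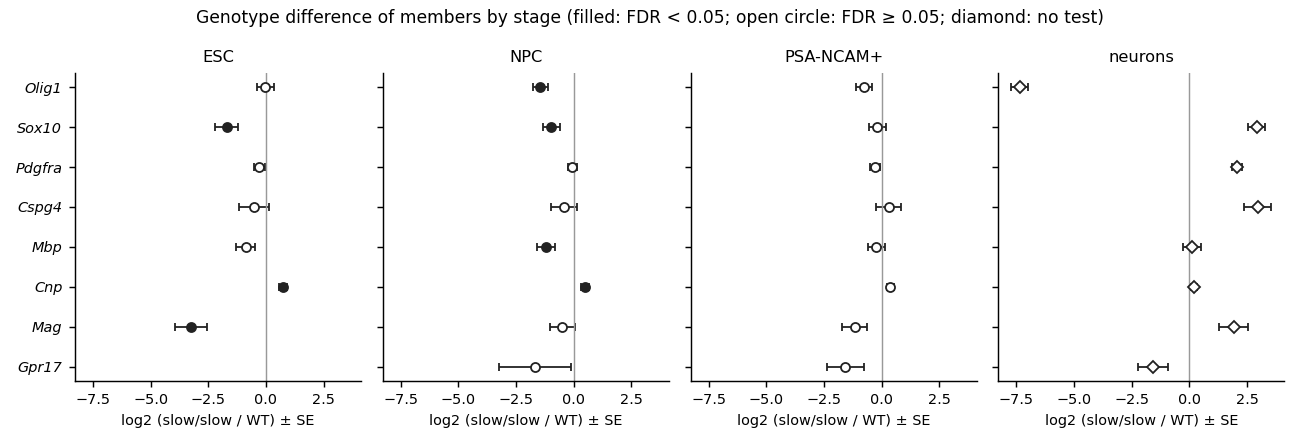
Log2 ratio of slow/slow to WT cells (x axis, bars: SE) for the 8 genes at each stage; filled circles were called at an FDR under 0.05, open circles were not, and diamonds in neurons carry no test. Gpr17, with 0 counts in all ESC libraries, is left out of the ESC panel. In neurons the genes spread from -7.36 for Olig1 to 2.97 for Cspg4.

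Gpr17, a receptor that appears as precursors begin to differentiate, was the only other member lower in slow/slow neurons. WT neurons gave 0.660, 0.963 and 0.568 CPM and slow/slow neurons 0.343, 0.199 and 0.164 CPM, without overlap, with a log2 change of -1.58 ± 0.661. It had 0 counts in all 6 ESC libraries, which allows at most 0.0929 CPM in the shallowest, and 0 to 4 counts in each NPC library. From NPCs to neurons Gpr17 rose in both genotypes, in WT (FDR = 0.000356) and in slow/slow cells (FDR = 0.00555). No fold is given, because the NPC libraries held 0, 4 and 4 counts in WT and 2, 0 and 0 counts in slow/slow cells. In WT PSA-NCAM+ cells 48 of its 55 counts came from replicate 1, and the rise over NPCs (2.45, FDR = 0.0406) was lost without that library (0.49, FDR = 0.715). It was also lost without any 1 WT NPC library (FDR = 0.117, 0.0756 and 0.0775), without the libraries numbered 1 of both genotypes (FDR = 0.664), with DESeq2 (FDR = 0.0557) and with the replicate block (FDR = 0.0557).

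Mag, a myelin adhesion protein of mature oligodendrocytes and Schwann cells, was barely detected. WT neurons held 5, 3 and 8 counts (0.0767, 0.0481 and 0.0770 CPM) and slow/slow neurons 22, 8 and 15 (0.328, 0.0996 and 0.411 CPM), which did not overlap, with a log2 change of 1.91 ± 0.608. Its highest level was in WT ESCs, at 0.473 ± 0.106 CPM. In slow/slow ESCs the libraries held 4, 2 and 0 counts, and Mag was lower there by a log2 change of -3.27 ± 0.693 (FDR = 0.000815), a call that held in all 12 alternatives run. It fell in WT cells from NPCs to neurons, with a log2 change of -2.14 ± 0.593 (FDR = 0.00261).

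Mbp, the basic protein that compacts myelin, gave similar levels in neurons of both genotypes, at 5.80, 4.99 and 5.95 CPM in WT and 6.37, 6.14 and 5.48 CPM in slow/slow cells, which overlapped (log2 change 0.10 ± 0.381). It was lower in slow/slow NPCs, at 2.33 ± 0.139 against 5.32 ± 0.390 CPM (-1.19 ± 0.397, FDR = 0.0149), a call that was lost only without slow/slow NPC replicate 1 (FDR = 0.0506) among 12 alternatives. In ESCs the means were 2.37 and 4.36 CPM without overlap, but the difference missed the threshold (FDR = 0.0863), which it passed when the ESC samples were fitted alone (-0.87, FDR = 5.68e-05). From NPCs to neurons Mbp rose in slow/slow cells by 1.37 ± 0.397 (FDR = 0.00415), and in WT cells its log2 change was 0.07 ± 0.382 (FDR = 0.872).

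The Mbp gene also makes longer transcripts, called Golli, that start upstream of the promoter used for the myelin isoforms. The splicing table lists 7 introns of the gene, and reads joining the exons on either side were counted for each, a summary chosen after the values had been seen. Over the 3 introns nearest the 5′ end the WT neuron libraries held 134, 122 and 225 such reads and the slow/slow neuron libraries 149, 176 and 63. Over the other 4 introns together they held 4, 7 and 12 reads in WT and 13, 7 and 5 reads in slow/slow neurons. In all 8 groups more reads fell on the 3 upstream introns; the table does not say which transcripts the reads came from. The downstream reads were fewer in slow/slow than in WT cells at the early stages, with 18, 6 and 11 reads in WT against 0, 0 and 1 in slow/slow ESCs, and 6, 14 and 17 in WT against 2, 2 and 1 in slow/slow NPCs, in neither case with overlap. These reads were not scaled to library size and carry no test.

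**Figure D4:**
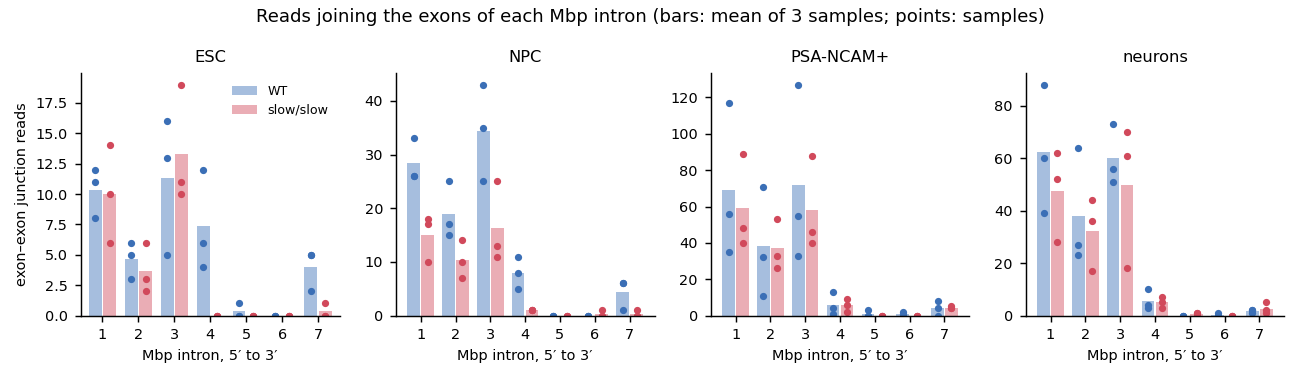
Reads joining the exons on either side of each of the 7 listed Mbp introns, numbered 5′ to 3′ (x axis), per stage, for WT (blue) and slow/slow (red) libraries; bars are means of 3 libraries, points are libraries, and the y axes differ. Introns 1 to 3 carry most reads in every group, for example 122 to 225 per WT neuron library against 4 to 12 over the last 4 introns.

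Cnp, a phosphodiesterase of myelin and the most evenly expressed member, was present at every stage. It was higher in slow/slow ESCs, at 41.8 ± 1.51 against 25.1 ± 2.32 CPM (log2 change 0.74 ± 0.160, FDR = 0.00105), and in slow/slow NPCs, at 24.6 ± 0.746 against 17.6 ± 0.814 CPM (0.48 ± 0.161, FDR = 0.0158), and both calls held in all 12 alternatives run. In neurons WT libraries gave 18.7, 20.1 and 19.9 CPM and slow/slow libraries 20.3, 22.6 and 23.8 CPM, just without overlap, with a log2 change of 0.19 ± 0.160. It fell from ESCs to NPCs in both genotypes, by 0.51 in WT (FDR = 0.00907) and by 0.77 in slow/slow cells (FDR = 0.000343).

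The 8 genes did not move in 1 direction in slow/slow neurons, a comparison that carries no test here. Because most of them are also expressed by other cells, their median and sum do not show whether the lineage was lost. Of the 8, 2 were lower, Olig1 and Gpr17, and the median log2 change was 1.05 beside -0.06 over all genes tested. In 7 of 8 the groups did not overlap, 5 of them higher and 2 lower, against 75.6% of all genes tested, 33.5% higher and 42.0% lower, and nothing is read from that count. Their summed level was 70.0 to 85.0 CPM in WT and 72.0 to 91.6 CPM in slow/slow neurons, but different genes made it up. In WT neurons the means were 38.4 CPM for Olig1, 19.5 for Cnp and 9.74 for Pdgfra. In slow/slow neurons they were 0.218 CPM for Olig1, 22.2 for Cnp and 40.9 for Pdgfra. Per length of transcript, the order in WT neurons by the authors' mean RPKM was Olig1 (18.1), Cnp (8.44), Mbp (2.28), Pdgfra (1.49), Sox10 (0.350), Gpr17 (0.143), Cspg4 (0.0400) and Mag (0.0267). In slow/slow neurons it was Cnp (10.55), Pdgfra (6.89), Sox10 (2.91), Mbp (2.69), Cspg4 (0.363), Mag (0.130), Olig1 (0.110) and Gpr17 (0.0533). These are the authors' means without a spread, so neighbours in the order cannot be separated.

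At the earlier stages the groups did not overlap for 5 of 8 members in ESCs (1 higher, 4 lower), against 59.8% of all genes (27.9% higher, 31.9% lower), and for 4 of 8 in NPCs (1 higher, 3 lower), against 74.7% (37.8% higher, 37.0% lower). In PSA-NCAM+ cells all 8 overlapped, against 43.1% of all genes without overlap. By the test, 3 of 8 members were called in ESCs (1 higher, 2 lower), beside 40.4% of all genes tested (18.5% higher, 21.9% lower), and 4 of 8 in NPCs (1 higher, 3 lower), beside 56.7% (29.3% higher, 27.4% lower). In PSA-NCAM+ cells 0 of 8 were called in edgeR, 3 had an unadjusted p under 0.05 and 1 was called in DESeq2, beside 56.7% of all genes in edgeR. That count depended on the libraries numbered 1. Without this pair 5 of 8 were called, with Cnp higher and Sox10 (log2 change -1.11, FDR = 0.000352), Cspg4 (-1.20, FDR = 0.00299), Mbp (-0.82, FDR = 2.63e-05) and Pdgfra (-0.42, FDR = 0.0338) lower. Without slow/slow replicate 1 alone 7 of 8 were called, and with the replicate number as a block 2 were called, Olig1 lower (-0.80, FDR = 0.0479) and Cnp higher (0.38, FDR = 0.0343). Cspg4 was at 3.43 CPM in slow/slow replicate 1 and at 0.576 and 0.590 CPM in the other two, and Mbp was at 13.7 CPM there and at 3.28 and 3.33 CPM in the others. In WT replicate 1 Mbp was also the highest of its group, at 11.8 CPM against 4.96 and 6.69 CPM. Pericyte and mesenchyme genes summed to 1329 to 2388 CPM in slow/slow and 1095 to 1399 CPM in WT PSA-NCAM+ cells, and their part in these values was not tested.

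Between stages, each genotype was compared with itself. From ESCs to NPCs 5 of 8 members changed in WT cells, Olig1, Sox10, Pdgfra and Cspg4 rising and Cnp falling, beside 65.6% of all genes, 34.0% rising and 31.6% falling. In slow/slow cells 5 of 8 changed as well, Sox10, Pdgfra, Cspg4 and Mag rising and Cnp falling, beside 62.3%, 33.9% rising and 28.4% falling. The rise of Mag (2.16, FDR = 0.0179), from 4, 2 and 0 counts in ESCs, was lost without slow/slow ESC replicate 2 (FDR = 0.0623) or 3 (FDR = 0.0646) or NPC replicate 3 (FDR = 0.0762). Olig1 rose in WT cells by 1.59 ± 0.329 (FDR = 0.000288), while in slow/slow cells its log2 change was 0.15 ± 0.382 (FDR = 0.746). From NPCs to PSA-NCAM+ cells 3 of 8 changed in WT cells, Olig1 and Sox10 falling by 1.28 and 1.49 (FDR = 0.0028 and 0.00277) and Gpr17 rising, beside 41.3%, 21.8% rising and 19.5% falling. In slow/slow cells 2 of 8 changed, Mbp rising by 1.52 (FDR = 0.00468) and Cnp falling by 0.41 (FDR = 0.0439), beside 42.3%, 22.5% rising and 19.8% falling. Without slow/slow PSA-NCAM+ replicate 1 the change of Mbp was 0.53 (FDR = 0.0753) and that of Cnp -0.21 (FDR = 0.25), and Sox10 (-1.29, FDR = 0.00298) and Pdgfra (-0.71, FDR = 0.00437) were then called as falling. From NPCs to neurons 5 of the 7 members tested changed in WT cells, Sox10, Pdgfra, Cspg4 and Mag falling and Gpr17 rising, beside 80.2%, 41.4% rising and 38.9% falling. In slow/slow cells 4 of 7 changed, Sox10, Cspg4, Mbp and Gpr17, all of them rising, beside 75.0%, 38.4% rising and 36.6% falling. Olig1, not tested here, was 39.9-fold higher in WT neurons than in WT NPCs and 1.50-fold lower in slow/slow neurons than in slow/slow NPCs.

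Whether the genotype effect itself differed between stages was tested for NPCs against ESCs and for PSA-NCAM+ cells against NPCs. For NPCs against ESCs 2 of 8 members passed, beside 24.6% of all genes tested. For Olig1 the difference of log2 changes was -1.43 ± 0.508 (FDR = 0.0449) and the call was lost in 10 of 17 alternatives, with an FDR of up to 0.167. For Mag it was 2.77 ± 0.908 (FDR = 0.0308), from a lower level in slow/slow ESCs, and the call was lost in 6 of 17 alternatives, with an FDR of up to 0.0895. For PSA-NCAM+ cells against NPCs 0 of 8 passed in edgeR, beside 14.6% of all genes, 7.52% positive and 7.04% negative, and the count was also 0 in DESeq2 and 0 at an unadjusted p under 0.05.

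Beyond the members, 61 other genes of the lineage were listed, of which 56 could be tested. In slow/slow neurons 23 were higher and 15 lower, beside 51.9% of all genes called, with a median log2 change of 0.42 beside -0.06 over all genes. The list held 12 transcription factors, 7 higher and 3 lower, 13 genes of the precursor surface and matrix, 5 higher and 6 lower of 12 tested, 6 premyelinating genes, 0 higher and 2 lower of 5 tested, and 30 myelin genes, 11 higher and 4 lower of 27 tested. In ESCs 4 were higher and 14 lower, NPCs had 17 higher and 18 lower, and the numbers were 21 and 13 for PSA-NCAM+ cells, beside 40.4%, 56.7% and 56.7% of all genes called. Fitted on the samples of the stage alone, 29 of 43 were called in ESCs and 8 of 53 in PSA-NCAM+ cells, and without the libraries numbered 1 the latter had 20 higher and 20 lower of 57 tested, beside 68.0% of all genes called in that fit. The list did not move as one at any stage.

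Among the genes lower in slow/slow neurons, the largest changes after Olig2 were in Pcdh15, a protocadherin enriched in precursors (log2 change -2.69, FDR = 0.00698), Lhfpl3 (-2.63, FDR = 8.41e-06) and Hapln2, a link protein of nodes of Ranvier (-2.45, FDR = 0.00175). Pcdh15 stood at 4.47, 3.402 and 3.69 CPM in WT and at 0.566, 0.597 and 0.630 CPM in slow/slow neurons. Nkx2-2, a factor that promotes differentiation of precursors, fell from 11.4 to 6.51 CPM (-0.80, FDR = 0.00955) after having been higher in slow/slow NPCs (1.42, FDR = 0.0108). The call in NPCs rested on 5, 4 and 3 counts in WT and 18, 8 and 4 counts in slow/slow libraries, which overlapped in CPM. The genes with the largest rise were Cldn11, the claudin of myelin tight junctions (4.84, FDR = 5.72e-10), Gjb1, a connexin of oligodendrocytes and Schwann cells (2, 0 and 0 counts in WT and 15, 14 and 21 in slow/slow neurons, FDR = 6.97e-06), the zinc finger gene St18 (3.68, FDR = 1.2e-06) and Mal (2.74, FDR = 0.0189). Cldn11 stood at 0.0963 to 0.200 CPM in WT and at 3.398 to 4.68 CPM in slow/slow neurons. Myrf, the master factor of myelin genes (listed under an older symbol), rose from 8.70 to 16.9 CPM (0.96, FDR = 0.00247). Its levels were higher in NPCs than in neurons, at 74.7 to 89.1 CPM in WT and 129 to 161 CPM in slow/slow NPCs. Mog, which is specific to mature myelin, had a mean of 2.91 CPM in WT and of 1.75 CPM in slow/slow neurons. The libraries did not overlap (2.68 to 3.15 against 1.69 to 1.81 CPM), but the difference missed the threshold (FDR = 0.0964).

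In NPCs and PSA-NCAM+ cells most transcription factors of the list were higher in slow/slow cells. In ESCs 1 was higher and 2 lower of 12, beside 18.5% and 21.9% of all genes. Of the 12, 9 were higher and 1 lower in NPCs, beside 29.3% higher and 27.4% lower of all genes, while PSA-NCAM+ cells had 8 higher and 2 lower, beside 28.6% and 28.1%, and the same numbers without the libraries numbered 1. St18 had 0 counts in all 3 WT NPC libraries and 11, 15 and 11 counts in the slow/slow NPC libraries (FDR = 0.00112), for which no fold is given, and it rose by 4.60 in PSA-NCAM+ cells (FDR = 2.72e-06) on the log2 scale. Sox5 rose by 2.38 in NPCs and 2.02 in PSA-NCAM+ cells, and Myt1 by 3.23 in PSA-NCAM+ cells (FDR = 2.81e-05). St18 and Myt1 are also neuronal factors. Of 10 neuronal genes, 8 were higher and 0 lower in slow/slow NPCs, and all 10 were higher in PSA-NCAM+ cells (9 without the libraries numbered 1). In neurons 0 were higher and 6 lower, beside 23.4% and 28.4% of all genes. The part of neurons in these values was not tested. Tmem100, found in precursors and in endothelium, rose by 2.64 in NPCs (FDR = 0.00011) and by 2.24 in PSA-NCAM+ cells (FDR = 0.000544). The largest falls in NPCs were those of Sept4 (-2.88, FDR = 0.00444), the neuregulin receptor Erbb3 (-2.21, FDR = 0.00146), Gjb1 (-1.76, FDR = 0.000353) and Rlbp1 (-1.65, FDR = 8.9e-07). In PSA-NCAM+ cells they were those of Matn4 (-1.78, FDR = 0.000465), Rlbp1 (-1.77, FDR = 4.67e-07), Tmem125 (-1.42, FDR = 0.0159) and Bcas1, a gene of newly formed oligodendrocytes (-1.27, FDR = 0.000204). Without the libraries numbered 1 each of the genes named for PSA-NCAM+ cells in this paragraph was called in the same direction, St18 at 4.64, Sox5 at 2.16, Myt1 at 3.20, Tmem100 at 2.26, Matn4 at -2.34, Rlbp1 at -2.19, Tmem125 at -2.09 and Bcas1 at -1.40. In ESCs Gjb1 (1.13, FDR = 0.0189), Nkx6-2 (0.99, FDR = 0.000187), Tmem63a (0.94, FDR = 0.000575) and Ugt8a (0.68, FDR = 0.00826) were higher, and Sept4 (-2.78, FDR = 0.0452), Itpr2 (-2.59, FDR = 5.8e-05), Sox6 (-2.41, FDR = 5.67e-05) and Matn4 (-1.86, FDR = 0.0288) lower.

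**Figure D5:**
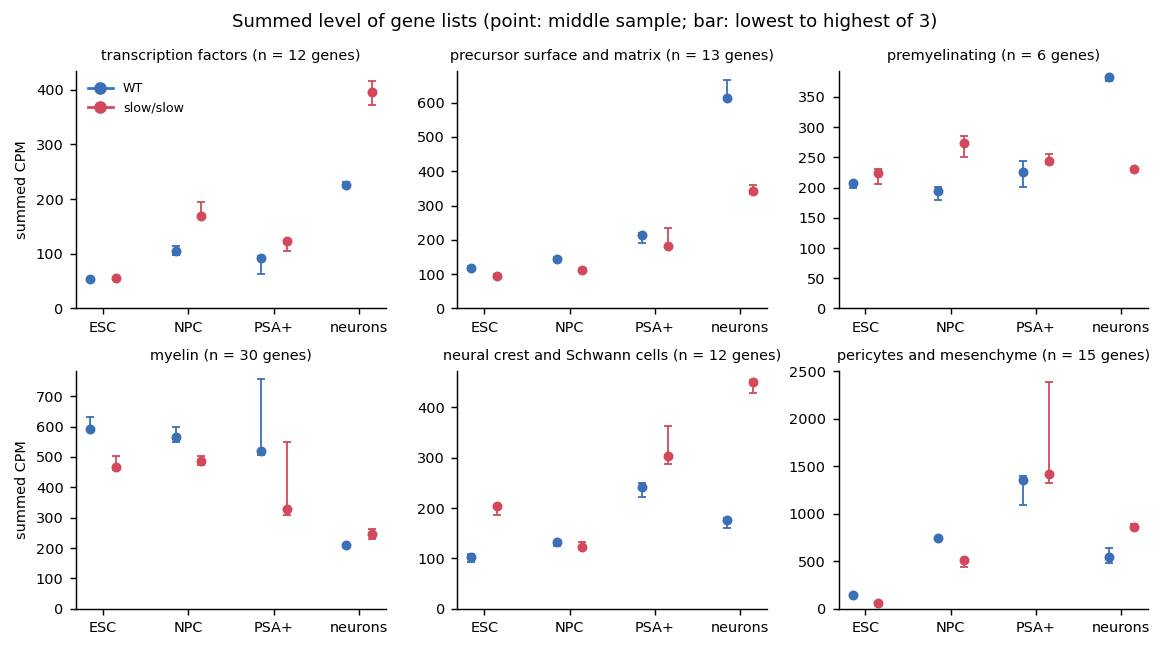
Summed CPM (y axis, from 0) of 4 groups of other lineage genes and of 2 lists of other cell types, per stage, for WT (blue) and slow/slow (red) cells; points are the middle sample and bars run from the lowest to the highest of 3. In neurons the neural crest list sums to 160 to 180 CPM in WT and 428 to 455 CPM in slow/slow cells. The precursor surface list sums to 609 to 664 CPM in WT and 332 to 360 CPM in slow/slow neurons, most of it from Vcan, Ptprz1 and Cspg5.

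The label of an oligodendrocyte lineage was checked against the levels. Per length, WT neurons held Olig1 and Olig2 at 18.1 and 9.53 and Pdgfra at 1.49 in the authors' mean RPKM, with Sox10 at 0.350, Cspg4 at 0.0400 and Mag at 0.0267. Of the 13 precursor surface and matrix genes 1, Neu4, had 0 counts in all neuron libraries, and 8 of the 12 tested rose and 4 fell from WT NPCs to WT neurons, beside 41.4% and 38.9% of all genes. The 13 genes summed to 609 to 664 CPM in WT and 332 to 360 CPM in slow/slow neurons. Most of this came from Vcan (252 to 268 against 146 to 182 CPM), Ptprz1 (177 to 217 against 75.6 to 81.8 CPM) and Cspg5 (99.5 to 109 against 40.1 to 47.3 CPM). Which cells expressed Vcan, Ptprz1 and Cspg5 was not tested. By count, 5 of the 12 tested were higher and 6 lower in slow/slow neurons. Slow/slow neurons held Pdgfra at 6.89 and Sox10 at 2.91 but Olig2 at 0.407 and Olig1 at 0.110. In neither genotype were Olig1, Olig2, Sox10, Pdgfra and Cspg4 all above 1 in CPM, and the genes are described here as single genes. The 10 neuronal genes summed to 5561 to 6028 CPM in WT and 4393 to 4697 CPM in slow/slow neurons. The astrocyte list, another glial type, had 2 genes higher and 4 lower of 10 tested in slow/slow neurons, with Gfap (-3.50, FDR = 2.38e-06) and Aldoc (-3.27, FDR = 4.38e-11) the lowest and Sox9 among the higher ones (1.21, FDR = 0.000592). Of the remaining lists, 4 of 7 motor neuron genes, 9 of 11 genes of extraembryonic endoderm and 4 of 6 genes of pluripotent cells were higher in slow/slow neurons, and 1 of each was lower, beside 23.4% and 28.4% of all genes. The summed levels did not follow these counts. For pluripotent cells they were 104 to 138 CPM in WT and 87.2 to 90.9 CPM in slow/slow neurons, and they overlapped for motor neurons (14.8 to 18.3 against 16.6 to 18.2 CPM) and for extraembryonic endoderm (62.6 to 74.2 against 70.2 to 96.0 CPM). The sums of the astrocyte list were 1177 to 1385 CPM in WT and 1067 to 1127 CPM in slow/slow neurons.

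Across the 24 samples, which share stages and replicates, the members fell into different patterns. Sox10 correlated with Cspg4 (r = 0.825) and Pdgfra (r = 0.816), whereas Olig1 correlated weakly with Sox10 (r = -0.06) and Pdgfra (r = -0.11) and best with Gpr17 (r = 0.583). Cnp ran against Mbp (r = -0.80). Among all 16627 genes the 5 most like Olig1 were Msgn1 (r = 0.938), Arhgap26 (0.934), Fam154b (0.925), Nacc2 (0.924) and Mzf1 (0.917). The closest to Sox10 were Pik3cd (0.935) and Cthrc1 (0.906), to Pdgfra Gstm5 (0.984) and Pth1r (0.983), to Cspg4 Arrdc4 (0.867) and Abhd14b (0.860), and to Gpr17 Foxj2 (0.961) and Pnma1 (0.947). For Mbp they were Limk2 (0.944) and 0610011F06Rik (0.941), for Cnp 2410022L05Rik (0.940) and Rbm10 (0.937), and for Mag Atg16l2 (0.809) and Grin2c (0.808). These are Pearson correlations of log2 CPM, given as a description.

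Splicing of the members that were expressed well enough did not differ between genotypes by the rule used, a difference in mean PSI (percent spliced in) of over 10 points without overlap. Of 72 listed events, the number that passed the coverage filters in all 6 libraries was 2 for ESCs and 5 for neurons, against 25 for NPCs and 29 for PSA-NCAM+ cells, and 0 met the rule at any stage, beside 0.386% of all events that passed in ESCs, 1.08% in neurons, 1.20% in NPCs and 0.417% in PSA-NCAM+ cells. The exact permutation test over 3 against 3 samples cannot go below 0.1 (two-sided). For Pdgfra 23 of 24 events passed in NPCs and in PSA-NCAM+ cells, and the largest difference was 1.98 and 2.55 points. In NPCs the Pdgfra intron that differed most (mm9 chromosome 5, 75572886 to 75573669) was retained at 1.64, 1.82 and 0% in WT and 3.61, 3.45 and 2.33% in slow/slow cells (exact p = 0.1). Both Cnp introns passed at every stage and were retained at no more than 3.03% in any library. Olig1 has no intron, and no event of Sox10, Cspg4, Mag or Gpr17 passed at any stage, so that a difference in their splicing was not detectable at this depth.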

How the data were processed

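Poly(A) RNA from 24 mouse samples (8 groups of 3) was sequenced from a stranded kit. The authors aligned reads to mm9 with vast-tools and deposited raw read counts per gene, a mean RPKM per group (reads relative to gene length and library size), and percent spliced in (PSI) per splicing event with its reads. Submitters' notes also name bcl2fastq 2.17.1.14 and edgeR. The deposited fold changes and FDRs and the table of called splicing events hold the authors' own comparisons and were not used. Of 22667 genes, 1114 had no counts listed, and 16627 passed filterByExpr.

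Counts were fitted in edgeR 4.0.16 (R 4.3.3; TMM scaling, quasi-likelihood F test, 1 model of 8 groups, 16 residual degrees of freedom, Benjamini-Hochberg FDR under 0.05). SE is the absolute log2 change over the square root of F. Correlations used log2 CPM with a prior count of 2. DESeq2 1.42.0, other scalings, no filter, single stages, a replicate block and leaving out each replicate were alternatives. The method was tested on simulated data. Splicing events needed adequate coverage in all 6 libraries, and introns at least 15 reads and a balance p of at least 0.05. Gene positions are from GRCm38 and GENCODE, splicing positions from mm9, and neither was converted.

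Members and lists were chosen with earlier results of these data known. Of the lists, up to 4 genes per direction and stage with the largest called change are named, plus Olig2, Olig3, Nkx2-2, Mog and Myrf; 1 further gene is not reported here. Same-numbered PSA-NCAM+ libraries of both genotypes deviated together from their group means (r = 0.54, 0.455 and 0.401). Deviations from a group mean depend on each other, and both libraries numbered 1 stood apart. The values for numbers 2 and 3 therefore cannot show that those libraries were paired. That the numbers pair the libraries was taken as an assumption. The correlations were between -0.0841 and 0.0677 at the other stages. The study describes separate differentiations, and p-values measure the spread between these samples only.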

Additional observations from a re-analysis of the deposited data

Results flagged for a closer look

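The effect of genotype on Olig1 differed between NPCs and ESCs, with a difference of log2 changes of -1.43 ± 0.508 (edgeR, FDR = 0.0449). Olig1 was lower in slow/slow NPCs, where all 3 libraries lay under the WT libraries, and the groups overlapped in ESCs, where each library held 8 to 26 counts. The call was lost without WT ESC replicate 1 (-1.24, FDR = 0.11) or 2 (-1.29, FDR = 0.0921), slow/slow ESC replicate 1 (-1.12, FDR = 0.167) or 3 (-1.44, FDR = 0.0726), WT NPC replicate 1 (-1.51, FDR = 0.0525), 2 (-1.33, FDR = 0.0844) or 3 (-1.46, FDR = 0.0648), slow/slow NPC replicate 1 (-1.23, FDR = 0.112) or 2 (-1.37, FDR = 0.0831), and with no filter on low counts (-1.44, FDR = 0.0506).

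The effect of genotype on Mag differed between the same stages by 2.77 ± 0.908 (edgeR, FDR = 0.0308), with 4, 2 and 0 counts in the slow/slow ESC libraries. The call was lost without WT ESC replicate 3 (2.57, FDR = 0.0636), slow/slow ESC replicate 2 (2.66, FDR = 0.0768) or 3 (2.34, FDR = 0.0762), WT NPC replicate 1 (2.74, FDR = 0.0531) or 2 (2.62, FDR = 0.0608), or slow/slow NPC replicate 3 (2.38, FDR = 0.0895).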

How the results depend on the processing

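Of 186 alternatives to the 12 counts of called genes or events, 162 stayed within 1.5 times the reported count and 24 did not. Of 1219 alternatives to 96 values of single members, 1135 kept their side of the threshold, 47 of these with a change of sign in a value that was not called, and 3 reversed. The number of members called for genotype in PSA-NCAM+ cells was 0 and became 1 with upper-quartile scaling, 1 with DESeq2, 2 with the replicate block, 0 to 7 when leaving out 1 replicate, and 5 without the libraries numbered 1 of both genotypes, an alternative chosen after seeing the data. Cspg4 reversed there, from 0.31 to -1.004 without slow/slow replicate 1 (0.75 without replicate 2) and to -1.20 without both libraries numbered 1, and in slow/slow PSA-NCAM+ cells over NPCs from 0.55 to -0.82 without both. These libraries also set the calls of Mbp and Gpr17 given above. Among other lineage genes 18 were called in ESCs and 29 of 43 tested when only ESC samples were fitted, and 34 in PSA-NCAM+ cells against 8 of 53 tested when only those samples were fitted. The members whose genotype effect differed between stages numbered 2, 1 with no filter on low counts, and 0 to 2 when leaving out 1 replicate. The cause was not tested.

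With the replicate number as a block, taken as pairing PSA-NCAM+ libraries, Olig1 (-0.80, FDR = 0.0479) and Cnp (0.38, FDR = 0.0343) were called there. In a blocked fit of these 6 samples alone, added after seeing the data, 0 of 7 members tested and 24 other lineage genes were called. Members with few counts, namely Mag and Gpr17 at every stage and Olig1 outside WT neurons, are limited by depth.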
